A study of Mus musculus with 48 samples.

Results

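The cytosolic ribosomal protein genes are the protein-coding mouse genes named for the proteins of the cytosolic ribosome, here all those whose symbol is Rpl or Rps with a number (and at most 1 letter of a, x, y or l), Rplp0 to Rplp2, or Rpsa. The rule uses names only and no measured value. It found 80 members among 55471 gene rows, 49 of the large 60S subunit and 31 of the small 40S subunit, on 19 chromosomes. Another 3 rows matched the pattern but are not protein coding and were left out.

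The study compared mice labelled as adipose-specific Txnip knockout (AKO) with wild-type (WT) mice, each on a ketogenic or a control diet. RNA was sequenced from epididymal white adipose tissue (eWAT; 8 AKO ketogenic, 8 WT ketogenic, 7 AKO control and 7 WT control libraries) and from eWAT cells labelled as macrophages sorted for CD64, F4/80 and CD11b (3 AKO ketogenic, 3 WT ketogenic, 6 AKO control and 6 WT control libraries). The strain, the age, the line that drives the deletion and the composition of the diets are not given in the sources used here. eWAT libraries came from 500 ng of total RNA with a stranded mRNA kit, and macrophage-labelled libraries from 1 to 5 ng with a low-input cDNA kit that keeps no strand. All RNA came from one extraction method, and the 4 combinations of tissue and diet carry 4 different title prefixes, and an effect of diet cannot be told apart from one of library set. Nothing in the labels ties each library to an animal of its own, so p-values measure the spread between these libraries, which may be partly technical.

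Cytosolic ribosomes are built from ribosomal RNA and these proteins, most of which are present once in each ribosome. The mRNAs of most members begin with a C and a run of pyrimidines, the TOP motif, through which mTORC1 and the repressor LARP1 govern their translation with little effect on mRNA level. In adipose tissue insulin is among the signals that activate mTORC1.

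Before the values, some limits of the labels apply. Txnip, the gene named as deleted, was higher and not lower in AKO eWAT: 2669 CPM (gene counts scaled to a common library size of 1e6) in AKO against 1656 CPM in WT on control diet, a log2 fold change of 0.69 ± 0.09 (SE; edgeR adjusted p = 0.00085), and 0.35 ± 0.09 (adjusted p = 0.044) on ketogenic diet. Whether the counted Txnip reads lie outside the deleted stretch was not tested, and AKO and WT are used below as names of libraries so labelled. Gm11868, chosen after its values were seen, separated the genotype labels in all 30 eWAT and all 12 control-diet macrophage-labelled libraries, and went against the label in 2 of 3 AKO and 2 of 3 WT ketogenic macrophage-labelled libraries. The summed level of 10 macrophage markers had group medians of 441 to 874 CPM in macrophage-labelled libraries, against 813 to 1476 CPM in eWAT. The summed level of 5 endothelial markers, by contrast, had medians of 5480 to 5998 CPM there, against 865 to 1048 CPM in eWAT, so the sorted libraries are called macrophage-labelled and no more. Library depth was 17.4 to 59.8 M gene counts. Macrophage-labelled WT control replicate 2 stood apart from its group and is given separately below.

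What the members share beyond their names was examined first, because it bears on how well each can be counted. Their reference transcripts are short, 271 to 3706 bases with a median of 705, with a GC content of 41.3 to 60.8% (median 51.8%). Processed pseudogenes, reverse-transcribed intronless copies, are common for this family, and 294 such rows are annotated. A median of 53.5% of a member's 50-base words recurred elsewhere among annotated transcripts, with a range of 0 to 98.6%. Since the deposited counts hold uniquely mapped reads only, reads of such stretches are lost, and the level of a member relative to another is uncertain to that extent.

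RefSeq promoter windows were listed for 60 members, with 72 start sites. A C at the listed start followed by at least 4 C or T stood at 13 of the 72 starts (18.1%), against 2.51% of all 32851 listed starts. A run of at least 8 C or T lay within 10 bases before to 20 bases after the start in 23 of 72 (31.9%), against 11.2% of all starts. The hexamer CTTTCC lay in that window on the transcribed strand in 13.9% of member starts and 1.28% of all. CCGGAAG, the core of the ETS factor site, lay on either strand of the 300 bases in 36.1% of member windows and 8.86% of all. AAGATGG, a core of the YY1 site, did so in 15.3% of member windows and 6.34% of all. These are matches of letters, and the listed start is not always the start in use. The windows of 7 members described below are shown so that the pyrimidine runs can be read. Each line gives 10 bases before and 20 bases from the listed start, 5′ to 3′ on the transcribed strand (RefSeq, GRCm38.p6), with the longest run of C and T in capitals.
Rplp2 (chr7:141447641-141447670, plus strand): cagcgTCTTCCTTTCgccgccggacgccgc
Rps26 (chr10:128626487-128626516, minus strand): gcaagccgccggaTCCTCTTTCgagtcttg
Rpl27a (chr7:109519185-109519214, plus strand): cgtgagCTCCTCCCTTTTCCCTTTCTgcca
Rps2 (chr17:24720053-24720082, plus strand): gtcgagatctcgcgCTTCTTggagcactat
Rpl39 (chrX:37085203-37085232, minus strand): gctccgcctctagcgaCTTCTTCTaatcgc
Rpl35 (chr2:39005112-39005141, minus strand): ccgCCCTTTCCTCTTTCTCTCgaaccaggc
Rps6 (chr4:86857348-86857377, minus strand): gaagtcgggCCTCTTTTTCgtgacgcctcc
The runs measured 20 bases in Rpl27a, 18 in Rpl35, 10 in Rplp2 and Rps6, 9 in Rps26, 8 in Rpl39 and 6 in Rps2. Rps26 and Rpl27a, with 9 and 20 bases, and Rps2, with 6, were all among the members that rose on the ketogenic diet in AKO eWAT (below). Rpl13, which rose there too, had no run of at least 5 bases at its listed start (window not shown), and Rps6, with 10, fell. A relation of run length to these changes was not tested.

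Together the members took about 1% of all gene counts in eWAT and about 0.3% in macrophage-labelled libraries. In eWAT the summed share was 0.915 ± 0.059% in AKO ketogenic, 0.839 ± 0.046% in WT ketogenic, 1.00 ± 0.039% in AKO control and 1.07 ± 0.078% in WT control libraries (SD, n = 8, 8, 7 and 7). The ketogenic groups ran from 0.810 to 1.02% in AKO and 0.758 to 0.909% in WT, and the control groups from 0.947 to 1.04% in AKO and 0.970 to 1.20% in WT. In WT mice the ketogenic and control libraries did not overlap, whereas in AKO mice they did. In macrophage-labelled libraries the share was 0.282 ± 0.018% in AKO ketogenic, 0.275 ± 0.033% in WT ketogenic, 0.316 ± 0.016% in AKO control and 0.349 ± 0.068% in WT control libraries (SD, n = 3, 3, 6 and 6). WT control replicate 2 held 0.485% (95% Wilson interval 0.483 to 0.488%, which covers counting error only), far above the rest of its group. The tissues differ in kit and RNA input as well as in cells, and no test was made between them. In all these bulk libraries, fewer cells of a type and less RNA per cell cannot be told apart.

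**Figure D1:**
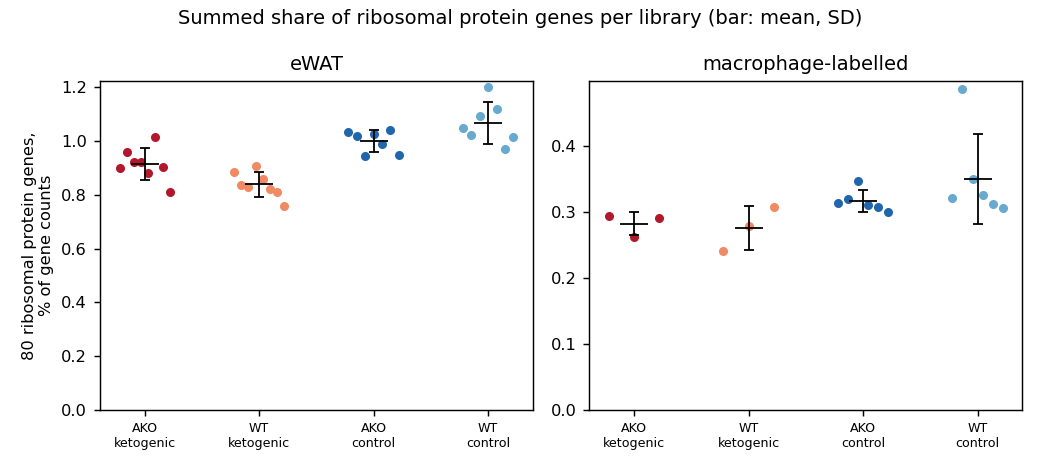
Summed share of gene counts (percent, vertical axis) taken by the 80 members in each library of eWAT and of macrophage-labelled cells, with groups in the order AKO ketogenic, WT ketogenic, AKO control and WT control, and with points for libraries and bars for the mean and SD. In eWAT, all WT ketogenic libraries lie below all WT control libraries, and in macrophage-labelled cells WT control replicate 2 stands alone at 0.485%.

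Within a library, member levels spread widely, as compared per kilobase of transcript. In eWAT of AKO control mice the high means included Rps27 at 501, Rpl32 at 440, Rps15 at 366 and Rpl4 at 353 CPM per kb. In WT control eWAT they included Rps15 at 452, Rps27 at 449, Rpl32 at 420 and Rplp1 at 397 CPM per kb. In macrophage-labelled WT control libraries Rpl41, which encodes the smallest ribosomal protein, led at 263 CPM per kb, followed by Rps14 at 191, Rpl4 at 171, Rpl13 at 169 and Rplp0 at 154 CPM per kb. Rpl13 thus ranked 4 there, and 62 in WT control eWAT at 93.1 CPM per kb.

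At the low end, overlapping annotation limits what was counted. Rpl24, Rps10 and Rpl13a averaged 0.508, 3.24 and 3.47 CPM per kb in WT control eWAT. Of their exons, 71.5, 91.6 and 59.3% lie under another gene annotated on the same strand (Gm28037, RPS10-NUDT3 and Gm45713), where a read is set aside as ambiguous. Group means of Rpl23a were 224 to 278 CPM per kb in eWAT and 2.90 to 4.07 CPM per kb in macrophage-labelled libraries, and those of Rpl35 were 75.5 to 79.8 and 2.34 to 5.76 CPM per kb. These overlap genes of the opposite strand (Tlcd1 for Rpl23a, Wdr38 and Arpc5l for Rpl35) over 55.4 and 68.3% of their exons, which matters only where strand was not kept. Rpl5 and Rpl30 also overlap genes of the opposite strand (Fam69a and D730044K07Rik). In WT control libraries Rpl5 averaged 73.5 CPM in eWAT and 11.9 CPM in macrophage-labelled cells, and Rpl30 84.2 and 5.40 CPM. The level of the first 5 members is therefore not comparable with the rest, nor is that of Rpl5 and Rpl30 in macrophage-labelled libraries.

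The paralogs that replace a partner in particular tissues were at or near 0. Rpl10l and Rpl39l, which stand in for Rpl10 and Rpl39 in male germ cells, and Rpl3l, which stands in for Rpl3 in striated muscle, averaged at most 0.303 CPM per kb in any group and were too low to test. The other 77 members passed the filter on low counts in every comparison. Of the partners, Rpl3, Rpl10 and Rpl39 averaged 112, 313 and 60.6 CPM per kb in WT control eWAT. Rps27l, a paralog of Rps27 that responds to p53 in human cells, averaged 80.8 CPM per kb, against 449 for Rps27. In macrophage-labelled WT control libraries the levels of that pair were 84.2 and 126 CPM per kb.

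The first comparison asks how the Txnip genotype label relates to ribosomal protein mRNAs on the control diet. In eWAT, 14 members were lower and 1 was higher in AKO than in WT (edgeR quasi-likelihood test, adjusted p under 0.05 over all genes tested), and 62 did not pass. Among all 16746 genes tested, 11.6% were called lower and 4.41% higher. The median log2 fold change of the 77 members was -0.04, against 0.01 over all genes, with a range from -1.58 to 0.28. Of the 14 lower members 10 were of the 60S and 4 of the 40S subunit.

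All 3 members of the P stalk were called lower in the main fit of this contrast. Rplp0, Rplp1 and Rplp2 form the stalk of the large subunit that recruits and activates the elongation factors. Rplp1 had 51.4, 95.4 and 163.7 CPM (lowest, median and highest) in AKO control libraries, against 145.2, 217.3 and 242.6 CPM in WT control libraries. Rplp2 had 51.4, 66.7 and 96.6 CPM in AKO, against 90.7, 155.1 and 166.2 CPM in WT. The overlap came from AKO replicate 6, the highest AKO library in both genes, which lay above WT replicates 6 and 7 in Rplp1 and above WT replicate 6 in Rplp2. The log2 fold change was -0.99 ± 0.21 for Rplp1 (SE; edgeR adjusted p = 0.0073) and -0.98 ± 0.16 for Rplp2 (adjusted p = 0.0029). Rplp0, which anchors both, had 178.5, 262.1 and 299.9 CPM in AKO against 287.5, 321.3 and 344.8 CPM in WT, a log2 fold change of -0.31 ± 0.10 (edgeR adjusted p = 0.040). Its call was lost on leaving out any of 10 of the 14 libraries, with edgeR adjusted p from 0.053 to 0.074. That call was kept in 6 of 11 settings that leave out no library. It was lost without the low-count filter, with the GC offset, with the GC and length offset, and with the replicate block. The replicate block with GC offset lost it too, and lost the call of Rplp1 as well.

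Rpl36, a small protein of the 60S subunit and the member of highest GC content (60.8%), changed most. It had 12.1, 28.7 and 55.2 CPM in AKO control libraries, against 59.0, 106.0 and 112.3 CPM in WT control libraries. Every AKO library lay below every WT library. Only Rpl36 and Rpl29 (38.6 to 60.7 CPM in AKO and 64.0 to 72.5 CPM in WT) showed no overlap, that is 2 members, where 3.33% of all genes were lower and 0.669% higher without overlap. The log2 fold change of Rpl36 was -1.58 ± 0.28 (edgeR adjusted p = 0.0036) and that of Rpl29 -0.39 ± 0.08 (adjusted p = 0.0072). The call of Rpl36 was kept in all 11 settings that leave out no library, and that of Rpl29 in 8 of 11, being lost with a GC offset, with a GC and length offset and with the replicate block and GC offset.

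Rps26, which lines the exit channel of the mRNA on the 40S subunit, had 37.4, 61.6 and 105.2 CPM in AKO control libraries, against 102.8, 131.1 and 143.3 CPM in WT, and fell by 0.95 ± 0.19 on the log2 scale (edgeR adjusted p = 0.0056). Rpl27a, a 60S protein, had 27.6, 34.1 and 46.5 CPM in AKO against 35.3, 73.8 and 90.7 CPM in WT. Here WT libraries 1 to 4 lay at 73.8 CPM or more and libraries 5 to 7 at 48.1, 37.6 and 35.3 CPM, the last 2 inside the AKO range. Rpl27a fell by 0.91 ± 0.22 (edgeR adjusted p = 0.012). Other lower members included Rpl8, Rps21, Rps13, Rpl18 and Rpl10a, with log2 fold changes from -0.70 (Rpl8) to -0.38 (Rpl10a).

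Rpl21, a 60S protein, was the 1 higher member, at 147.9, 166.4 and 178.1 CPM in AKO against 136.3, 138.5 and 156.6 CPM in WT. Its log2 fold change was 0.18 ± 0.05 (edgeR adjusted p = 0.032), and the call was lost on leaving out any of 7 of 14 libraries. Several members with roles outside the ribosome did not pass. Rpl5 and Rpl11, which bind Mdm2 together with 5S RNA when ribosome assembly fails, had log2 fold changes of 0.13 ± 0.06 and -0.13 ± 0.05 (edgeR adjusted p = 0.15 and 0.066). Rps6, the phosphorylation target of S6 kinase, had 0.05 ± 0.06, and Rps19, the gene most often mutated in Diamond-Blackfan anaemia in humans, had -0.21 ± 0.07 (edgeR adjusted p = 0.60 and 0.050).

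**Figure D2:**
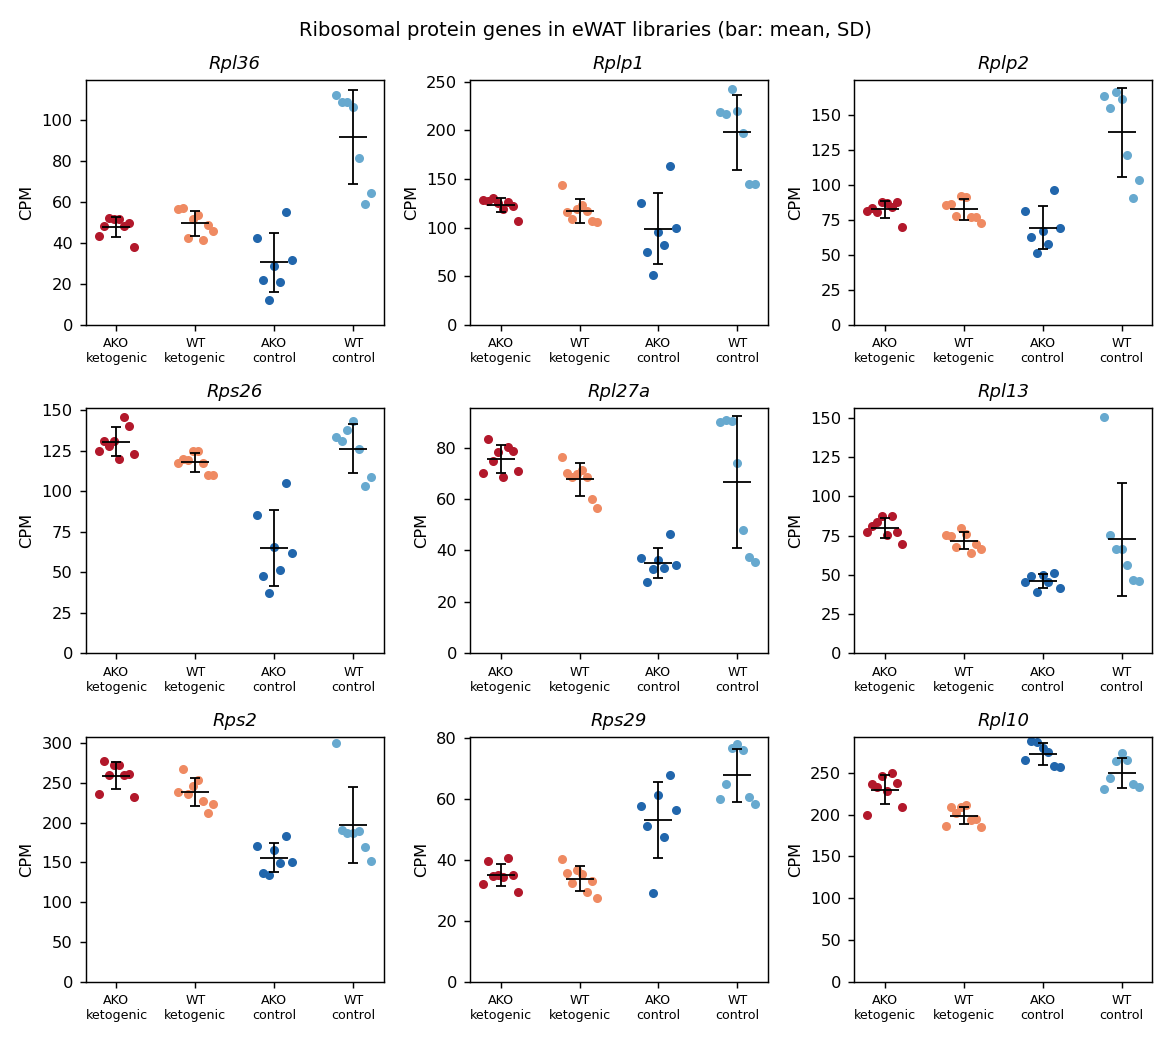
CPM per eWAT library (vertical axes, one panel per gene) of Rpl36, Rplp1, Rplp2, Rps26, Rpl27a, Rpl13, Rps2, Rps29 and Rpl10, with groups in the order AKO ketogenic, WT ketogenic, AKO control and WT control. Rpl36 in AKO control libraries lies between 12.1 and 55.2 CPM, below all WT control libraries, and the ranges of the AKO ketogenic and WT ketogenic libraries overlap in every panel.

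GC content moved with these values. Across the 77 members the log2 fold change had a Spearman correlation of -0.57 with the GC content of the transcript, given as a description over genes of the same libraries. The 14 lower members had a median GC content of 54.6%, against 50.7% in the 62 that were not called. Over all genes, a library's expression slope per 10 percentage points of GC ranged from -0.24 to 0.15 on the log2 scale in AKO control libraries, against 0.11 to 0.31 in WT control libraries. AKO replicate 3, with the slope of -0.24, was lowest of its group in 12 of the 15 called members, and AKO replicate 6, with the slope of 0.15, was highest in 10. With a GC offset per library, 3 members were called higher and 10 lower, and with a GC and length offset 4 higher and 10 lower. Of the 15 calls, 10 were kept under the GC offset and 10 under the GC and length offset, both times with those of Rpl36, Rplp2, Rps26, Rps21 and Rpl10a, which were also kept in each of the 11 settings tried that leave out no library. Without AKO replicate 6 the test called 7 members higher and 20 lower, and without AKO replicate 1 it called 5 higher and 20 lower. The part of GC content in these differences beyond the offsets was not tested.

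**Figure D3:**
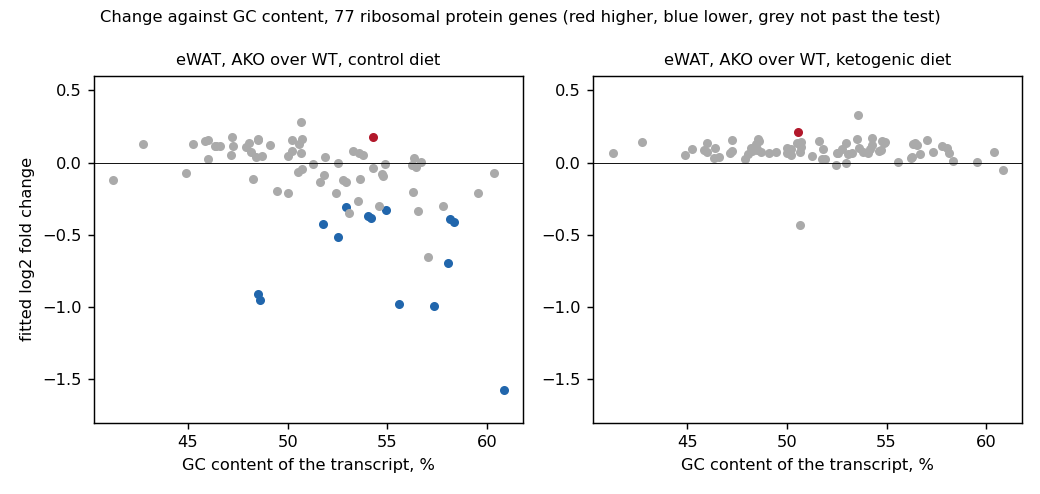
Log2 fold change of each of the 77 tested members, AKO over WT in eWAT (vertical axis), against the GC content of its transcript in percent (horizontal axis), for the control diet and the ketogenic diet. On control diet the points fall with GC content (Spearman -0.57), with Rpl36 lowest at 60.8% GC, and on ketogenic diet they do not (Spearman -0.03).

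On the ketogenic diet the genotype labels differed little in the main fit, while more members were called with the replicate block (last section). Of the 77 members 1 was higher in AKO eWAT and none was lower (edgeR), where 3.36% of all 15225 genes were called, 1.48% higher and 1.88% lower. No member's groups were free of overlap (0.171% of all genes were higher and 0.256% lower without overlap). DESeq2's Wald test called 8 members higher and none lower, and 25 members had an unadjusted p under 0.05. The log2 fold change was above 0 in 73 of 77 members, with a median of 0.08 against 0.00 over all genes. Rpl10, which is fitted last into the 60S subunit and touches the tRNA, had 200.1, 234.7 and 249.5 CPM in AKO ketogenic libraries, against 184.8, 198.2 and 211.1 CPM in WT ketogenic libraries. The groups overlapped in part, and the log2 fold change was 0.21 ± 0.05 (edgeR adjusted p = 0.031). That call was lost on leaving out any of 6 of the 16 libraries (adjusted p 0.053 to 0.062).

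The 5 members that fell most in AKO on control diet did not pass here. Rpl36 had 38.1, 48.9 and 52.1 CPM in AKO ketogenic and 41.2, 50.1 and 57.0 CPM in WT ketogenic libraries, a log2 fold change of -0.05 ± 0.08. Rplp1 and Rplp2 had log2 fold changes of 0.07 ± 0.06 and 0.00 ± 0.06, and Rps26 and Rpl27a 0.15 ± 0.05 and 0.16 ± 0.06 (edgeR adjusted p from 0.084 for Rps26 to 0.99 for Rplp2). The GC slopes of the ketogenic libraries lay between -0.12 and -0.05 in AKO and between -0.10 and -0.06 in WT.

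Whether the genotype difference itself depended on diet was tested with an interaction in one fit of the 4 eWAT groups, as the AKO over WT log2 fold change on ketogenic diet minus that on control diet. It passed for 23 of 77 members, all above 0, where 8.31% of all 17140 genes passed, 6.96% above 0 and 1.35% below. The difference was 1.54 ± 0.28 for Rpl36 (SE; edgeR adjusted p = 0.0027), 1.11 ± 0.19 for Rps26 (0.0022), 1.08 ± 0.22 for Rpl27a (0.0041), 1.07 ± 0.21 for Rplp1 (0.0035) and 0.99 ± 0.17 for Rplp2 (0.0022). Rplp0, the base of the stalk, differed by 0.45 ± 0.10 (edgeR adjusted p = 0.0059). The others included Rpl13 and Rpl8, both 0.81, and ran down to 0.25 for Rps14, with 10 of the 40S and 13 of the 60S subunit. The median over the 77 members was 0.15, against 0.00 over all genes.

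This count changed with a GC offset as well. The interaction had a Spearman correlation of 0.58 with GC over the members. It passed for 11 members under a GC offset, all above 0, and for 13 above and 1 below 0 under a GC and length offset. Rpl36, Rps26, Rpl27a, Rplp1, Rplp2, Rplp0, Rpl8, Rps21, Rps13, Rps7 and Rpl10a passed in every setting tried that leaves out no library. Among the AKO control libraries replicate 3 was lowest in 20 of the 23 members, and among WT control libraries replicates 6 and 7 were lowest in 12 and 10.

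The diet comparison asks how ketogenic and control libraries differed within each genotype label, with diet and library set not separable. In WT eWAT, 46 members were lower and 3 higher on ketogenic than on control diet (edgeR), and 28 did not pass. Much of the transcriptome differed between these libraries, with 53.8% of all 15569 genes called, 27.0% lower and 26.8% higher, so lower members exceeded the background share and higher members fell short of it. Mean depth was 22.7 M gene counts in WT ketogenic and 43.1 M in WT control libraries, and the mean GC slope was -0.085 and 0.214. The median log2 fold change of the members was -0.21, against -0.01 over all genes. In 33 of the 46 lower members the groups did not overlap, and in none of the 3 higher, where 11.5% of all genes were lower and 9.51% higher without overlap. Both subunits took part, with 20 of 31 members of the 40S and 26 of 46 of the 60S lower. With a GC and length offset the split was 7 higher and 34 lower, and the median -0.09.

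Rps29, a small zinc-binding protein of the 40S subunit, fell most. It had 27.5, 34.3 and 40.5 CPM in WT ketogenic libraries, against 58.5, 64.9 and 78.0 CPM in WT control libraries. The groups were well apart, and the log2 fold change was -0.96 ± 0.09 (edgeR adjusted p = 1.7e-07). Rpl36 fell by 0.84 ± 0.14, Rplp1 by 0.71 ± 0.11, Rplp2 by 0.70 ± 0.12 and Rpl29 by 0.67 ± 0.05 (edgeR adjusted p from 2.7e-08 to 0.00013). All but Rplp2 did so without overlap. Rps28 and Rps19 of the 40S subunit fell by 0.66 ± 0.09 and 0.58 ± 0.06, Rplp0 by 0.47 ± 0.05, Rpl11 by 0.27 ± 0.05, Rpsa by 0.21 ± 0.06, Rpl3 by 0.18 ± 0.06 and Rps6 by 0.17 ± 0.06 (edgeR adjusted p from 3.2e-07 to 0.037). The calls of Rpl11, Rpl3 and Rps6 were lost with a GC offset and with a GC and length offset, and that of Rpsa with the second of these. Rps6 kept its call in 8 of 15 fits that each left out 1 library. Rpsa is also known as a laminin receptor, and Rpl3 reaches into the peptidyl transferase centre.

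3 members were higher. Rps2, a 40S protein near the mRNA entry, had 212.4, 237.0 and 267.4 CPM in WT ketogenic libraries, against 151.8, 187.4 and 299.7 CPM in WT control libraries. The highest control value, replicate 1, stood above every ketogenic library, while the other 6 control libraries lay lower. Its log2 fold change was 0.32 ± 0.11 (edgeR adjusted p = 0.018), and 0.25 with adjusted p = 0.053 without WT control replicate 7. Rpl39, which lines the exit tunnel, had 40.1, 44.0 and 50.5 CPM on ketogenic and 33.0, 36.6 and 40.6 CPM on control diet, a log2 fold change of 0.31 ± 0.06 (edgeR adjusted p = 0.00037). Rps27l rose by 0.19 ± 0.05 (edgeR adjusted p = 0.0038) while Rps27 fell by 0.25 ± 0.07 (0.0053), although under a GC offset the value of Rps27l was 0.00 (-0.0026). The call of Rps27l was also lost with a GC and length offset and with no filter on low counts, and that of Rps27 with a GC and length offset.

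In AKO eWAT 32 members were lower and 9 higher on ketogenic than on control diet (edgeR), where 39.5% of all 16483 genes were called, 19.7% lower and 19.8% higher. The groups did not overlap in 9 of the lower and 5 of the higher members, where 4.96% and 7.46% of all genes were so placed. The median log2 fold change was -0.13, against -0.02 over all genes. This split changed with GC and length offsets. It was 14 higher and 21 lower under a GC offset, and 17 higher and 14 lower with a median of 0.02 under a GC and length offset. The share of all genes called under these offsets is not given here. This comparison and that in WT mice share no library, but each shares its control libraries with the genotype comparison above.

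Rps29 again led the falls, with 29.6, 34.9 and 40.8 CPM in AKO ketogenic and 29.0, 56.4 and 68.1 CPM in AKO control libraries. The groups overlapped through 1 low control library. Its log2 fold change was -0.59 ± 0.13 (edgeR adjusted p = 0.0020). Rps28 fell by 0.49 ± 0.09, Rpl35a by 0.41, Rps19 by 0.40 ± 0.06 and Rpl34 by 0.36. Among the members singled out for their roles, Rps27, Rpl10, Rpl3, Rps6, Rpl11, Rps4x and Rpsa fell by 0.35, 0.25, 0.23, 0.19, 0.18, 0.17 and 0.15, while Rpl5, Rps27a, Rpl22 and Rplp0 had values between -0.11 and 0.07 and did not pass. Of these 7 calls, those of Rps27 and Rpl10 were kept in all 10 settings, those of Rps4x and Rpsa were lost with a GC offset, with a GC and length offset and with the replicate block, that of Rpl11 with both offsets, and those of Rpl3 and Rps6 with a GC and length offset. Rps27a is made as a fusion with ubiquitin, and Rps4x is X-linked.

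The rises in AKO mice were larger than the falls. Rpl27a had 68.6, 76.5 and 83.5 CPM in AKO ketogenic libraries, against 27.6, 34.1 and 46.5 CPM in AKO control libraries. All ketogenic libraries lay above all control libraries, and the log2 fold change was 1.10 ± 0.09 (edgeR adjusted p = 2.2e-07). Rps26 had 119.7, 129.3 and 145.7 CPM on ketogenic against 37.4, 61.6 and 105.2 CPM on control diet, also without overlap, with a log2 fold change of 1.01 ± 0.17 (adjusted p = 0.00021 by edgeR).

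Rpl13, a 60S protein, had 69.8, 79.2 and 87.7 CPM on ketogenic against 39.0, 45.6 and 51.3 CPM on control diet in AKO eWAT, and Rps2 had 231.9, 260.5 and 277.2 CPM against 133.7, 150.7 and 182.9 CPM. Neither gene's groups overlapped. Rpl13 rose by 0.80 ± 0.07 and Rps2 by 0.73 ± 0.07 (edgeR adjusted p = 3.2e-07 and 1.0e-06). Rpl36 rose by 0.65 ± 0.23 (edgeR adjusted p = 0.032), a call lost on leaving out any of 5 of 15 libraries. Rpl39 and Rps27l rose by 0.29 ± 0.07 and 0.27 ± 0.04, and Rpl12 and Rpl14 by 0.13 ± 0.05 and 0.11 ± 0.04. The call of Rpl12 was kept in 5 of 10 settings and 3 of 15 fits that left out 1 library, and that of Rpl14 in 7 of 10 and 6 of 15.

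Set side by side, some of these members had different values by genotype label. Rpl36 had a ketogenic over control log2 fold change of 0.65 in AKO and -0.84 in WT, Rpl27a 1.10 and 0.06, Rps26 1.01 and -0.06, and Rpl13 0.80 and 0.03, and for each the interaction above passed (adjusted p = 0.020 for Rpl13 by edgeR). For Rpl13 that call was lost with a GC offset and with a GC and length offset. Rps2 and Rpl12 also passed the interaction, and their calls were lost with the same offsets, that of Rpl12 also with DESeq2 size factors. In WT eWAT Rpl13 had 64.1 to 79.7 CPM on ketogenic diet, against 150.5 CPM in WT control replicate 1 and 46.0 to 75.5 CPM in the other WT control libraries. On the ketogenic diet the levels of Rpl36, Rpl27a, Rps26 and Rpl13 in AKO and WT libraries overlapped.

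In macrophage-labelled libraries no member differed between genotype labels. On control diet edgeR called 0 of 77 members, DESeq2 called 0 and 0 had an unadjusted p under 0.05, where 0.0820% of all 17067 genes were called, 0.0293% higher and 0.0527% lower. No member's groups were free of overlap, against 0.750% of all genes higher and 0.674% lower without overlap. All 77 log2 fold changes were nevertheless below 0, with a median of -0.13 against -0.02 over all genes. Without WT control replicates 2 and 3, of which replicate 2 has the high share, the median was 0.02. On ketogenic diet edgeR and DESeq2 called 0 members, 0 had an unadjusted p under 0.05, and 0.00% of all genes were called. No member's groups were free of overlap, against 3.36% of all genes higher and 3.98% lower without overlap. The median was 0.03. Of the 6 ketogenic macrophage-labelled libraries 4 went against their genotype label, and without them 1 library per genotype label is left. The interaction passed for 0 members by edgeR and by DESeq2, with 0 at an unadjusted p under 0.05 (0.00% of all genes), and its median was 0.16.

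Because the genotype label is doubtful in the ketogenic group, the diets were also compared with both labels together, 6 ketogenic against 12 control libraries, a comparison added after seeing the data. Of the 77 members 19 were lower and 3 higher (edgeR), where 30.4% of all 17573 genes were called, 16.1% lower and 14.3% higher. The diets did not overlap in 6 lower members and 1 higher, where 3.72% of all genes were lower and 4.56% higher without overlap. The median log2 fold change was -0.15, against -0.02 over all genes. Without WT control replicates 2 and 3 the split was 8 higher and 26 lower, with a median of -0.07, and without WT control replicate 2 alone it was 7 higher and 27 lower. Under a GC and length offset the direction turned, with 26 higher and 6 lower and a median of 0.08, so no direction for the family as a whole is given for these libraries.

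Rpl35, a 60S protein beside the exit tunnel, showed the clearest difference. It had 5.95, 5.14 and 5.25 CPM in AKO ketogenic and 4.27, 4.69 and 5.61 CPM in WT ketogenic libraries, against 1.94 to 2.48 CPM in AKO control and 1.94 to 3.54 CPM in WT control libraries. All 6 ketogenic libraries lay above all 12 control libraries. The log2 fold change was 1.11 ± 0.12 (edgeR adjusted p = 1.6e-06), and 1.29 ± 0.13 in AKO and 0.93 ± 0.20 in WT alone (adjusted p = 0.00012 and 0.033). As 68.3% of its exons lie under genes of the other strand and these libraries keep no strand, only a small part of its reads is counted. In eWAT, where strand was kept, the ketogenic over control log2 fold change of Rpl35 was 0.08 ± 0.07 in AKO and 0.06 ± 0.06 in WT mice and did not pass.

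Rps29 had 23.7, 18.1 and 20.9 CPM in AKO ketogenic and 18.8, 19.4 and 23.05 CPM in WT ketogenic libraries, against 9.99 to 13.8 CPM in AKO control and 9.90 to 19.4 CPM in WT control libraries. WT control replicate 2, at 19.4 CPM, was the 1 control library within the ketogenic range. Rps29 rose by 0.78 ± 0.12 (edgeR adjusted p = 6.9e-05), while in eWAT it fell on the same diet in both genotype labels. The difference between the tissues was not tested. Rpl30 was the last of the higher members, at 0.26, a call kept in 7 of 18 fits that left out 1 library and lost with no filter on low counts. The annotated gene D730044K07Rik overlaps it on the opposite strand.

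Among the lower members, Rps24, which takes part in processing the small-subunit RNA, had 22.04, 18.8 and 21.9 CPM in AKO ketogenic and 16.7, 19.5 and 23.6 CPM in WT ketogenic libraries, against 25.5 to 29.8 CPM in AKO control and 24.4 to 40.9 CPM in WT control libraries. The diets did not overlap, and Rps24 fell by 0.46 ± 0.10 (edgeR adjusted p = 0.0021). Rpl13 had 93.3 to 105 CPM in AKO ketogenic and 87.6 to 106 CPM in WT ketogenic, against 117 to 133 CPM in AKO control and 110 to 166 CPM in WT control libraries, and fell by 0.37 ± 0.07 (edgeR adjusted p = 0.00091). Rps20 and Rps27l each fell by 0.36. With a GC and length offset the log2 fold changes of Rpl13 and Rps27l were -0.13 and -0.11 and neither passed (edgeR adjusted p = 0.091 and 0.11). Calls of Rpl35, Rps29, Rps24, Rps20, Rps3, Rps25, Rpl4 and Rpl8 were kept in the settings that leave out no library, in the same direction.

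**Figure D4:**
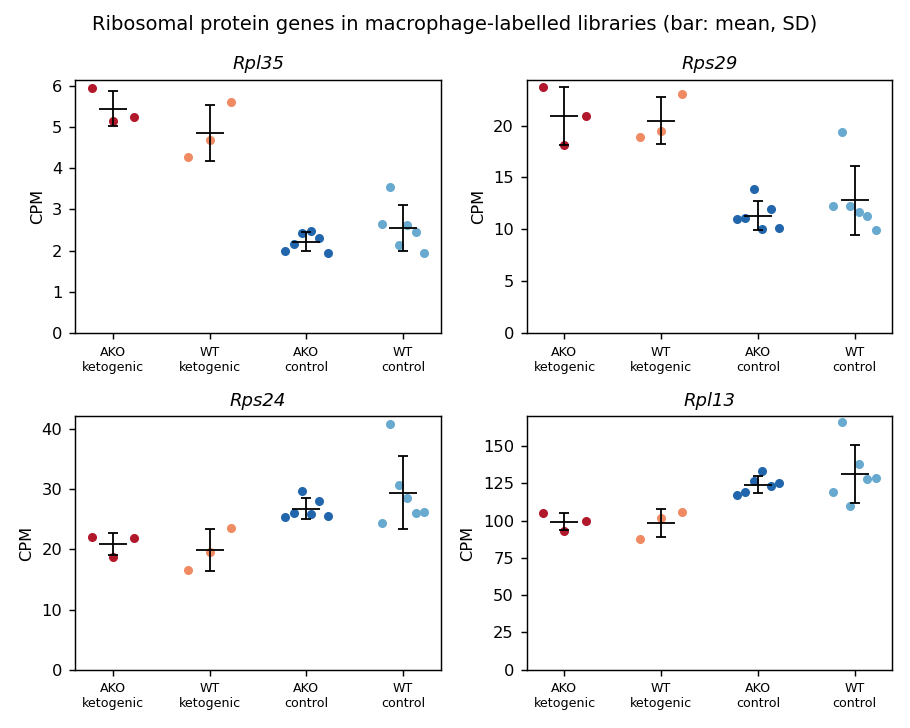
CPM per macrophage-labelled library (vertical axes, one panel per gene) of Rpl35, Rps29, Rps24 and Rpl13, with groups in the order AKO ketogenic, WT ketogenic, AKO control and WT control. Rpl35 lies above 4.2 CPM in all 6 ketogenic libraries and below 3.6 CPM in all 12 control libraries, and WT control replicate 2 is the highest control library in each panel.

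Within each genotype label the macrophage-labelled diets gave fewer calls. In AKO libraries 3 members were higher and 13 lower (10.7% and 9.57% of all genes, 20.3% in all), led by Rpl35, Rps29 and Rpl28 (0.23) among the higher. The lower members included Rps24 at -0.36, Rpl13 at -0.32, Rps27l at -0.30 and Rpl27 at -0.26. Over all 77 members the groups did not overlap in 3 higher and 16 lower, where 11.7% and 11.0% of all genes were so placed. The split was 18 higher and 4 lower under a GC and length offset. Without the AKO ketogenic libraries that went against their label 1 ketogenic library is left, and with that library assumed to vary like the control libraries 2 members, Rpl35 and Rps29, were called. In WT libraries 1 member, Rpl35, was higher and 0 were lower (1.74% and 1.79% of all genes, 3.52% in all), with 17 at an unadjusted p under 0.05 and 2 higher and 3 lower by DESeq2. The groups did not overlap in 16 lower members and 1 higher, where 1769 of all 17687 genes were lower and 1739 higher (9.83%) without overlap. The call of Rpl35 there was lost on leaving out any library but WT control replicate 2, without which 8 members were called.

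Levels of other cell types' markers moved with some of these comparisons, and their part in the members' values was not tested. Counts of called markers stand beside these shares of all genes. Ketogenic over control, 26.8% were higher and 27.0% lower in WT eWAT, and 19.8% and 19.7% in AKO eWAT. In macrophage-labelled libraries with both labels together, 14.3% were higher and 16.1% lower. AKO over WT in eWAT on control diet, 4.41% were higher and 11.6% lower. In WT eWAT the 10 macrophage markers summed to 708 to 1016 CPM on ketogenic and 1170 to 1576 CPM on control diet, and 8 of the 10 were lower (edgeR). The 5 B cell markers were all lower, with summed medians of 3.66 CPM on ketogenic and 15.2 CPM on control diet. In the AKO over WT comparison on control diet 4 of 5 endothelial markers were higher, with summed ranges of 934 to 1086 CPM in AKO and 782 to 910 CPM in WT, and 4 of 8 adipocyte markers were lower, with 22904 to 26487 CPM in AKO and 24923 to 30708 CPM in WT. In that comparison 1 macrophage marker was higher and 3 were lower of 10. In AKO eWAT the macrophage markers summed to 797 to 1618 CPM on ketogenic and 1149 to 1781 CPM on control diet, with 4 of 10 lower and 0 higher, and 4 of 5 B cell markers were lower, with summed medians of 6.52 CPM on ketogenic and 16.8 CPM on control diet. In WT eWAT 4 of 5 endothelial markers were higher and 4 of 7 mesothelial markers lower on ketogenic diet. In macrophage-labelled libraries 9 of 10 macrophage markers were lower on ketogenic diet with both labels together, with group medians of 441 CPM in AKO ketogenic and 584 CPM in WT ketogenic, against 874 CPM in AKO control and 730 CPM in WT control libraries. None of these markers was at 0 in a whole group.

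Genes that serve the same machinery were read from lists of related genes, and their counts stand beside these shares of all genes. AKO over WT in eWAT, 4.41% were higher and 11.6% lower on control diet, and 1.48% and 1.88% on ketogenic diet. Ketogenic over control, 26.8% rose and 27.0% fell in WT eWAT, 19.8% and 19.7% in AKO eWAT, and 14.3% and 16.1% in macrophage-labelled libraries with both labels together. Of the 77 tested mitochondrial ribosomal protein genes, which build the separate ribosome of the mitochondrion, 32 were lower and 0 higher in AKO than in WT eWAT on control diet, with a median of -0.16. Mrps12, Mrpl57 and Mrpl34 fell most, by 1.07 ± 0.20, 0.94 ± 0.17 and 0.79 ± 0.22 (edgeR adjusted p = 0.0045, 0.0039 and 0.025). On ketogenic diet 5 were lower in AKO and 0 higher. Ketogenic over control, 12 rose and 23 fell in WT and 14 rose and 17 fell in AKO eWAT. In macrophage-labelled libraries with both labels together 1 rose and 39 fell. List counts are from the main fit only, and the members' own direction in that comparison turned under a GC and length offset. The share of the mitochondrial list in macrophage-labelled WT control libraries ran from 0.161 to 0.242%, with a median of 0.170%. Their shares of gene counts were 0.169 ± 0.005% in AKO ketogenic, 0.177 ± 0.007% in WT ketogenic, 0.179 ± 0.004% in AKO control and 0.200 ± 0.006% in WT control eWAT (SD).

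Ribosomal proteins named otherwise went with the members in part. Fau, which encodes the 40S protein eS30 fused to a ubiquitin-like protein, was lower in AKO than WT eWAT on control diet by 0.50 ± 0.10 (edgeR adjusted p = 0.0062), although its value was 0.02 under a GC and length offset. Ketogenic over control it fell by 0.50 ± 0.08 in WT mice, as did Rack1, a scaffold on the 40S head, by 0.54 ± 0.05 (edgeR adjusted p = 2.6e-05 and 2.1e-07). Rpl22l1, the paralog of Rpl22, rose by 0.58 ± 0.09 in WT and 0.35 ± 0.08 in AKO mice (edgeR adjusted p = 5.0e-05 and 0.0015), and Rpl22 itself had 0.05 and -0.02. Rps4l, a pattern match that is not protein coding, averaged 7.40 CPM in AKO and 15.6 CPM in WT control eWAT. Of the pseudogene rows 56 passed the filter in the AKO over WT control comparison, with 0 higher and 5 lower, and 78 in the macrophage-labelled diet comparison with both labels, with 2 higher and 29 lower. These counts too are from the main fit only. The pseudogene share in macrophage-labelled WT control libraries reached 0.0122%, against a group median of 0.0084%.

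Translation factors were called in both directions. These counts are to be read against the shares of all genes given above, and no shift of the lists as a whole is taken from them. Of 28 initiation factors, 1 was higher and 5 lower in AKO than WT eWAT on control diet. Eif4a2, an RNA helicase of the cap-binding complex, was higher by 0.66 ± 0.07 (562 CPM in AKO and 357 CPM in WT, edgeR adjusted p = 0.00044) without overlap, by 0.54 ± 0.06 on ketogenic diet, and by 0.51 ± 0.05 in macrophage-labelled control libraries (adjusted p = 0.00019 and 0.00068). In the last of these it was among only 14 genes called of 17067. Whether its difference between labels follows from the loss of Txnip or from the line that drives the deletion was not tested. Eif6, which keeps the 60S subunit from joining too early, fell by 0.47 ± 0.12 on control diet, and Eef2, the translocation factor that works on the P stalk, fell by 0.51 ± 0.12 (edgeR adjusted p = 0.016 and 0.010). Of 18 elongation factors and other genes with a TOP motif, 1 rose and 1 fell in that comparison. Ketogenic over control in WT mice 6 rose and 5 fell, with Nap1l1, a histone chaperone, up by 0.96 ± 0.05 and Eef2 down by 0.58 ± 0.05 (edgeR adjusted p = 5.0e-09 and 1.1e-07). In AKO mice 3 rose and 3 fell, and Nap1l1 was up by 1.01 ± 0.06.

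Of 46 ribosome biogenesis genes 8 were lower and 1 higher in AKO eWAT on control diet, led by Rrp9 (-0.72 ± 0.15), Nhp2 (-0.62 ± 0.13) and Bop1 (-0.50 ± 0.11), all of which act in processing ribosomal RNA or its small nucleolar particles (edgeR adjusted p = 0.0058, 0.0074 and 0.0099). On ketogenic diet 0 differed by edgeR between the labels, with 6 at an unadjusted p under 0.05. Ketogenic over control, 7 rose and 15 fell in WT and 6 rose and 11 fell in AKO mice. Of 19 genes of the mTORC1 pathway and its targets on TOP mRNAs, Ddit4, an inhibitor of mTORC1, was higher on ketogenic diet by 1.65 ± 0.20 in WT and 1.63 ± 0.18 in AKO eWAT (49.7 against 16.3 CPM, and 44.4 against 14.3 CPM, edgeR adjusted p = 5.7e-06 and 6.8e-06). Larp1 rose by 0.26 ± 0.05 and 0.38 ± 0.05 in the same comparisons. The largest called changes of this list also included Deptor and Sesn3 in WT and Akt1s1 and Mlst8 in AKO eWAT. No direction for the list as a whole is given. In AKO over WT on control diet the mTORC1-associated genes Akt1s1, Sesn2 and Eif4ebp1 fell by 0.76 ± 0.20, 0.69 ± 0.18 and 0.51 ± 0.12 (edgeR adjusted p = 0.021, 0.018 and 0.012). Of 10 small nucleolar RNA host genes Snhg8 was lower by 0.82 ± 0.13 and Gas5 higher by 0.22 ± 0.05 in that comparison (edgeR adjusted p = 0.0028 and 0.010).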

How the data were processed

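The deposited values were raw counts of reads for each gene in 48 libraries. The submitters' processing notes name Trim Galore 0.6.0, mm10 and STAR 2.7.8a. Parameters and the annotation release are not given in the sources used here, and the counts hold uniquely mapped reads. Reads in the sense of the stranded kit were taken for eWAT, and reads of either strand for macrophage-labelled libraries. Symbols, GC content and transcript lengths came from GENCODE vM21 (GRCm38) for 55144 of 55471 rows, start windows from RefSeq. Summary rows that name no gene were kept out of library sizes and tests. Multimapping reads, which uniquely mapped counts drop, were 8.28 to 10.1% of mapped reads in eWAT libraries.

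Each comparison was fitted on all genes in R 4.3.3 with edgeR 4.0.16 (filterByExpr, TMM, robust quasi-likelihood, two-sided) with Benjamini-Hochberg adjustment over all genes tested and calls at 0.05. The SE is the absolute log2 fold change divided by the square root of F. For CPM, 1 set of TMM factors was computed per tissue. DESeq2 1.42.0 and limma 3.58.1 were alternatives, as were GC and length offsets (smooth span 0.3), the replicate block and leaving out libraries, and the fits were tested on simulated data. Named members are the 5 largest rises and falls among called members (mean 2 CPM or more), and those with set roles or paralogs. Some members entered every count and fit but are not reported here by name. Members and lists were chosen with earlier results of these data known. Same-numbered libraries were not taken as pairs in the main fits, since no comparison had every pair's correlation above 0.1. Some structure by number was present all the same. In eWAT AKO against WT on ketogenic diet 7 of 8 pairs were above 0.1 (range 0.098 to 0.377). In macrophage-labelled AKO against WT on control diet 5 of 6 were (range 0.066 to 0.490). The replicate block is the setting that takes this into account. Total counts per library limit precision only for members at a few CPM.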

Additional observations from a re-analysis of the deposited data

Results flagged for a closer look

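Across 94 tests of a member or share within a group of 4 to 10 libraries, 14 had 1 library whose gap to the others was large for the group's range, and chance alone would give about 1 in 20. In eWAT, WT control replicate 1 was high in Rpl13 (150.5 CPM) and Rps2 (299.7 CPM). WT ketogenic replicate 1 was high in Rplp1 (143.7 CPM). AKO control replicate 3 was low in Rps28 (21.7 CPM), and AKO ketogenic replicate 8 was low in Rpl39 (37.5 CPM), Rplp2 (69.5 CPM) and Rps28 (16.9 CPM).

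In macrophage-labelled cells several came from WT control replicate 2, which was high in the summed share (0.485%), Rpl27 (46.4 CPM), Rpl28 (27.7 CPM), Rps20 (77.4 CPM) and Rps29 (19.4 CPM). That library also held 7.79% multimapping reads, while AKO control libraries held 5.55 to 6.05%. AKO control replicate 3 was high in Rps20 (51.5 CPM).

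In eWAT the AKO minus WT contrast differed between the ketogenic and the control diet, by the interaction test, for 23 members. The difference on the log2 scale was 1.54 for Rpl36, 1.11 for Rps26, 1.08 for Rpl27a, 1.07 for Rplp1, 0.99 for Rplp2 and 0.45 for Rplp0. The spread of the control libraries in GC slope stands beside this in the report, and its part beyond the offsets was not tested.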

How the results depend on the processing

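Members called (higher or lower together) moved as follows. Throughout the report, shares of all genes called are from the main fits only. Whether a changed count is particular to the members therefore cannot be read from these values. AKO over WT in control eWAT, 15, became 27 by DESeq2's Wald test, 23 by voom, 29 with 4 groups in one fit and 9 with the replicate block and GC offset (15 with the block alone, 12 lower), and 10 to 27 on leaving out a library. On ketogenic diet, 1 became 2 without members in TMM, 8 by Wald, 5 by voom, 7 with GC and length offset, 8 with the block, 12 with block and GC, and 0 to 3 leaving out a library. The eWAT interaction, 23, became 11 with GC and 14 with GC and length, and 17 to 25 leaving out a library. In WT macrophage-labelled libraries by diet, 1 became 5 (Wald), 9 (voom), 2 (GC), 6 (GC and length), 16 (4 groups), 8 (block), 0 without libraries against their label (1 ketogenic library left, assumed to vary like the others), 7 without WT control 2 and 3, and 0 to 8 leaving out a library. In AKO, 16 became 2 (4 groups), 6 (block), 2 (without libraries against their label, again 1 ketogenic library) and 5 to 15. With both labels, 22 became 34 without WT control 2 and 3, and 15 to 34. The eWAT diet counts, 49 in WT and 41 in AKO, kept within 1.5 times (47 to 54 and 34 to 46 leaving out a library), and macrophage-labelled genotype and interaction counts were 0 throughout. With the replicate block the AKO diet split in eWAT was 12 higher and 24 lower. Shares with multimapping reads in the total were 0.821% (AKO ketogenic), 0.753% (WT ketogenic), 0.904% (AKO control) and 0.969% (WT control) in eWAT and 0.296% in AKO control macrophage-labelled libraries. Of 7097 recomputed values of named genes called in the main fit, 6451 kept their call, 642 lost it and 4 turned direction. Those that turned were Fau (AKO over WT, control) 0.021 with GC and length and 0.0031 with block and GC, Rps27l (WT diet) -0.0026 with GC, and Rpl11 (AKO diet) 0.0013 with GC and length. The causes were not tested.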
